A study of Mus musculus with 48 samples.

Results

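The gene Gla and the other lysosomal genes read in the caecum of mice are described here. Gla encodes alpha-galactosidase A, the lysosomal enzyme that removes the terminal galactose of globotriaosylceramide and related glycolipids. The members were taken by name from the caecum table: Gla, every cathepsin whose symbol is Cts followed by 1 letter, and every Lamp gene with a number. This gave 11 members out of 3779 genes tested: Gla, Ctsa, Ctsb, Ctsc, Ctsd, Ctsh, Ctsl, Ctss, Ctsz, Lamp1 and Lamp2. Each had 1 probe, in 1 row of that table. Gla was singled out because its signal was low in the control group Ctr1, so its values in any comparison with Ctr1 are given as a description, and nothing is drawn from a test of them. The cathepsins and Lamp genes were chosen by name.

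RNA of the caecum was read on 16 of the 48 one-colour arrays of the study, 1 mouse per array. Mice aged 8 weeks received 500 µL by gavage each day for 30 days beside standard chow: sesquiterpene lactones (STL, bitter terpenes of chicory, 3 mice), chlorogenic acids (CGA, phenolic esters of the root, 3 mice) and the control Ctr2 (2 mice), fructose (Fru, 3 mice), a decoction of chicory flour that stood for 30 mg of root powder a day (Chic, 3 mice) and the control Ctr1 (2 mice). By the design text of the series, the experiments fell in separate periods, Chic and Fru beside Ctr1 and CGA and STL beside Ctr2. The labels give water for both controls, while the study's methods give DMSO for Ctr2 where the feeding is described. Thus a difference of Ctr2 from Ctr1 cannot be told apart from one between the solvents or the periods. The methods state male BALB/cOlaHsd mice, but 8 of the 16 caecum arrays carry a female tag in the labels: all of STL, all of CGA and 2 of Fru. All Ctr1, Ctr2 and Chic arrays are tagged male. If the tags hold, diet and sex cannot be told apart for CGA and STL against Ctr2. For Fru against Ctr1 or Chic they coincide in part. The methods also name colon where the labels name caecum. All 14 epithelial markers looked for, among them Epcam, Cdh1, Vil1 and Krt20, were on the table.

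Lysosomes break down proteins, lipids and sugars in an acid lumen. Their hydrolases are made in the endoplasmic reticulum, receive mannose 6-phosphate in the Golgi and are carried to the lysosome by receptors such as the product of Igf2r. Cathepsins are its main proteases. The Lamp proteins coat the inner face of the lysosomal membrane. Many lysosomal genes carry a palindromic element around the letters CACGTG, to which TFEB and TFE3 bind, and are known to be induced together through it.

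The promoter windows of Gla, Ctsa and Ctsd are shown because they share the longer palindrome TCACGTGA. The sequences are those of RefSeq on GRCm38.p6, from 250 bases before to 50 bases after a transcript start, on the strand of the gene. Capitals mark TCACGTGA, and CACGTG where the longer form was absent.
Gla (chrX:134600956-134601255, minus strand): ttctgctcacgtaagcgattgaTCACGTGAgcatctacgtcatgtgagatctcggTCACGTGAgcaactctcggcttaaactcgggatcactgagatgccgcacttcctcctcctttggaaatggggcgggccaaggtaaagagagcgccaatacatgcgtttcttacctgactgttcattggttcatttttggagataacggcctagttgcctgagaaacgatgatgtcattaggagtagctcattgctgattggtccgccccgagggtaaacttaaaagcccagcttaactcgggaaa
Ctsa (chr2:164833523-164833822, plus strand): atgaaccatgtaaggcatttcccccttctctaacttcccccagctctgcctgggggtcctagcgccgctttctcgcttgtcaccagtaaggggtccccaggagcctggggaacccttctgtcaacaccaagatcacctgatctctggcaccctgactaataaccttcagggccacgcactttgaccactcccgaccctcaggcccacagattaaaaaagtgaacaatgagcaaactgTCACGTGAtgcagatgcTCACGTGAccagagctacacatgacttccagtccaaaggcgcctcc
Ctsd (chr7:142387778-142388077, minus strand): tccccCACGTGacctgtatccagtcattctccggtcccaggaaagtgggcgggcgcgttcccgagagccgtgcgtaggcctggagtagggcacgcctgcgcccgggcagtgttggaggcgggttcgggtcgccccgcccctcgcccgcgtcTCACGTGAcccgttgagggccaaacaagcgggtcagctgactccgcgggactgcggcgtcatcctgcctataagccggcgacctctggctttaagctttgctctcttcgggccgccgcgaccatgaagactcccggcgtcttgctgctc

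Both motifs read the same on either strand, and every TCACGTGA holds a CACGTG. Windows were found for 9 of the 11 members, 10 windows in all since Ctsa has 2 starts. CACGTG lay in the windows of 5 members, against 7.15% of the 32851 windows in the RefSeq table. TCACGTGA lay in those of 3 members, against 0.974% of all windows. Gla held 2 copies of TCACGTGA, and so did the window of Ctsa shown, a count reached by 0.0578% of all windows. Lamp1 held 4 copies of CACGTG, Ctsl 1, and Ctsc, Ctss, Ctsz and Lamp2 none. These are matches of letters in a fixed window and not sites of binding.

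Gla was low on both arrays of Ctr1 and on no other. The deposited intensities were 5072, 5016 and 2813 for STL, 4683, 2091 and 5549 for CGA, and 7596 and 3223 for Ctr2. They were 7565, 1321 and 8061 for Fru, 4637, 5457 and 2584 for Chic, and 509 and 1039 for Ctr1. Since the medians of the 16 arrays ran from 186 to 1687, the values were taken to log2 and quantile-normalized between arrays before they were compared, and all values from here on are on that normalized log2 scale. The dimmest array was Fru-2, whose raw Gla signal of 1321 became 12.14, among the values of the other Fru mice.

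After normalization Gla lay at 11.82, 12.18 and 12.26 in STL, 11.80, 11.92 and 12.08 in CGA, and 12.45 and 11.60 in Ctr2. It lay at 12.13, 12.14 and 12.81 in Fru, 11.95, 11.98 and 11.76 in Chic, and 8.35 and 10.14 in Ctr1. The 14 arrays outside Ctr1 thus spanned 1.21 units, while the 2 Ctr1 mice differed from each other by more than that and both lay below all others. Over these 14 arrays the SD of Gla was 0.31, against a median SD of 0.29 over all genes. The gap between the higher Ctr1 array and the lowest of the 14 others, Ctr2-2, was 1.46.

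**Figure D1:**
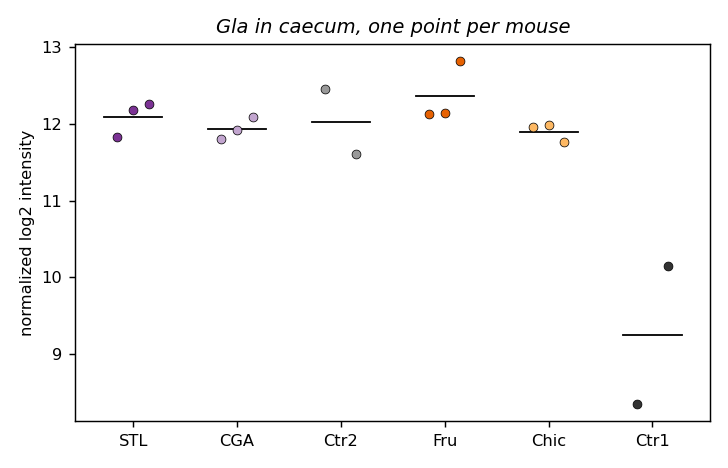
Normalized log2 intensity of Gla (vertical axis) in each diet group (horizontal axis), with 1 point per mouse and a bar at the mean of the group. The Ctr1 mice lie at 8.35 and 10.14, and the other 14 between 11.60 and 12.81.

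In means, Gla stood at 12.36 ± 0.39 in Fru (SD, n = 3) and 9.25 ± 1.26 in Ctr1 (SD, n = 2), a log2 difference of 3.11. Chic stood at 11.90 ± 0.12 (SD, n = 3), which was 2.65 above Ctr1, and Ctr2 at 12.03 ± 0.60 (SD, n = 2), which was 2.78 above Ctr1. These 3 differences share the same 2 Ctr1 arrays. They were 2.22, 1.75 and 1.88 without Ctr1-1, and 4.01, 3.54 and 3.67 without Ctr1-2. With the 4 control arrays pooled, the difference was 1.72 for Fru and 1.26 for Chic.

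Between groups that do not involve Ctr1, no difference of Gla passed the test (limma, adjusted over all genes). Gla averaged 12.36 ± 0.39 in Fru against 11.90 ± 0.12 in Chic (SD, n = 3 each), a difference of 0.46 with a 95% interval from -0.33 to 1.26 (limma adjusted p = 0.999). All 3 Fru arrays lay above all 3 Chic arrays, an order that 1.98% of all genes showed. Gla averaged 11.93 ± 0.14 in CGA (SD, n = 3) against 12.03 ± 0.60 in Ctr2 (SD, n = 2), a difference of -0.09 with an interval from -0.98 to 0.79 (limma adjusted p = 1.00). For STL, at 12.09 ± 0.23 (SD, n = 3), the difference from Ctr2 was 0.06, from -0.83 to 0.94 (limma adjusted p = 0.999). The sign of the CGA and STL differences turned when single Ctr2 arrays were left out. STL differed from CGA by 0.15, from -0.64 to 0.94 (limma adjusted p = 1.00).

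Other genes shared the low Ctr1 values, with smaller gaps. Of the 3762 genes with a value on all 16 arrays, both Ctr1 arrays lay below the 14 others for 91 and above them for 47. Among the 91 Gla had the largest gap, but it was chosen for these low values, so nothing is read from its place. The next were Hspa9, a mitochondrial chaperone, with a gap of 0.67, and Sdf4, a calcium-binding protein of the Golgi, with 0.62. No cathepsin and no Lamp gene was among them. Of the 68 further lysosomal genes described below, Atp6v0e (gap 0.056) and the lipid hydrolase gene Smpd1 (gap 0.0059) were. Markers of other cell types gave these values beside the Gla level. The 10 smooth muscle and fibroblast markers averaged from 10.03 to 10.60 in the 14 other arrays, against 10.75 and 10.59 in Ctr1. The 14 epithelial markers averaged from 11.81 to 12.56 in the 14 other arrays, against 12.41 and 12.20 in Ctr1. The 10 goblet and Paneth cell markers averaged from 11.16 to 12.91 in the 14 other arrays, against 12.28 and 13.15 in Ctr1, so that Ctr1-2 lay above all of them. The 6 B and plasma cell markers averaged from 9.80 to 10.62, against 9.73 and 10.15 in Ctr1, so that Ctr1-1 lay below all of them. Ctr1 overlapped with the others for the 5 macrophage markers, although C1qa, 1 of these 5, was among the 91 genes, with a lowest value of 8.03 in the 14 other arrays, against 7.78 and 7.99 in Ctr1. It also lay within their range for the 5 fat cell and 4 blood markers and for the single dendritic cell, cytotoxic lymphocyte, and neutrophil and mast cell markers measured. Their part in the Gla level was not tested, and in bulk tissue fewer cells of a type and less RNA per cell cannot be told apart.

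The genes whose profile was most like that of Gla over the 16 arrays were Ahsa1 (Pearson's r = 0.80), Anp32a (0.78), Sdf4 (0.75), Ptges3 (0.75) and Nup93 (0.74). Ahsa1 and Ptges3 encode co-chaperones of HSP90. This likeness leans on the low Ctr1 pair: over the 14 other arrays it was 0.54 for Ahsa1 and 0.61 for Ptges3, but 0.26 for Anp32a, -0.01 for Sdf4 and -0.23 for Nup93. Over those 14 arrays the closest were Utp6 (0.82), Gm4832 (0.81), Emc4 (0.78), Krt8 (0.77) and Plcd4 (0.76). Each of these genes was highest on Fru-3 and Ctr2-1, which were also the highest arrays for Gla. Their r without this pair of arrays was not computed. None of these 10 genes is a member or on the lists of lysosomal genes. The cathepsins and Lamp genes ranked far lower over the 14 arrays, from place 208 for Lamp2 to 2909 for Ctsb of 3778 genes.

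No cathepsin or Lamp gene showed a correlation with Gla that passed the test. Over the 14 arrays without Ctr1, Pearson's r with Gla ran from -0.27 for Ctsb to 0.39 for Lamp2. For Lamp2 the permutation p was 0.171 (rho 0.31, permutation p = 0.276), and r fell to 0.21 without the 2 arrays farthest from the median of Gla. For Ctsc r was 0.35 (permutation p = 0.220) and rho 0.34 (permutation p = 0.232). Of the 10 relations computed, none passed 0.05, with adjusted p from 0.978 to 0.989 (two-sided permutation test, Benjamini-Hochberg). Within the 8 arrays of STL, CGA and Ctr2, r ran from -0.49 for Ctsb to 0.44 for Lamp2, and within the 6 of Fru and Chic from -0.29 for Ctsd to 0.39 for Ctsc. With the group means removed, r over the 14 arrays ran from -0.60 for Ctsh to 0.46 for Lamp2, and none of the 10 passed the permutation test after adjustment. With all 16 arrays, where the Ctr1 pair decides the Gla axis, r ran from -0.26 for Ctsa to 0.23 for Ctsh, leaving out Ctsc, which has a value at the floor of a Ctr1 array. On the deposited values all 10 members were correlated with Gla, with r from 0.79 for Ctsb to 0.93 for Ctsc and adjusted permutation p of at most 0.00085. The deposited values are not adjusted for the brightness of the arrays, whose medians ran from 186 to 1687. The part of brightness in these r was not tested.

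**Figure D2:**
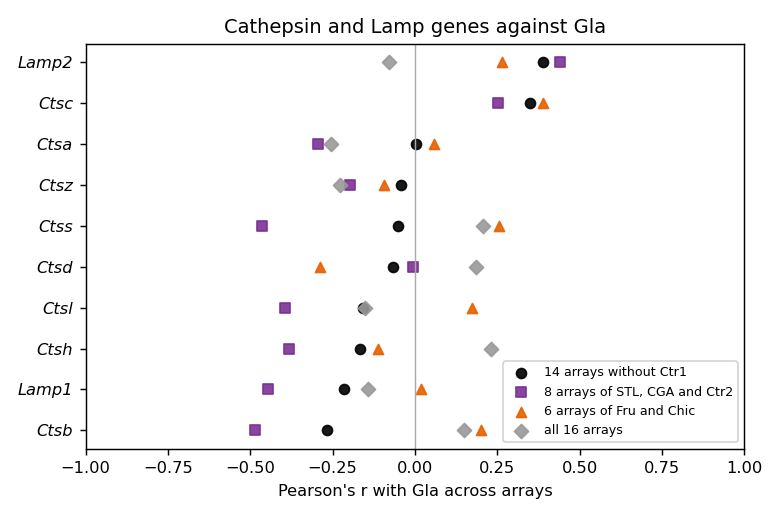
Pearson's r of each cathepsin and Lamp gene with Gla (horizontal axis) across the 14 arrays without Ctr1 (black circles), the 8 arrays of STL, CGA and Ctr2 (purple squares), the 6 arrays of Fru and Chic (orange triangles) and all 16 arrays (grey diamonds, not drawn for Ctsc). Over 14 arrays the values lie between -0.27 and 0.39, on both sides of 0.

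None of the 10 cathepsins and Lamp genes passed the test in any of the 7 comparisons (limma, p adjusted over the 3779 genes). Over all genes, 0.0265% passed for Fru against Ctr1, which is 1 gene, Gla, whose choice used that contrast, so that nothing is read from it, and 0% passed in each of the other 6. At an unadjusted p under 0.05, 1 of the 10 was past the limit for Fru against Ctr1 (7.12% of all genes), 1 for Chic against Ctr1 (2.75%) and 1 for Ctr2 against Ctr1 (6.03%), in each case Ctsc. There were 0 of 10 for CGA against Ctr2 (3.47% of all genes), STL against Ctr2 (2.86%), Fru against Chic (1.24%) and STL against CGA (1.08%). The median difference over the 10 was 0.05 for Fru against Ctr1 and 0.06 for Chic against Ctr1, beside 0.01 and 0.03 over all genes. It was 0.04 for CGA against Ctr2 and -0.03 for STL against Ctr2, beside 0.04 and 0.03 over all genes.

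**Figure D3:**
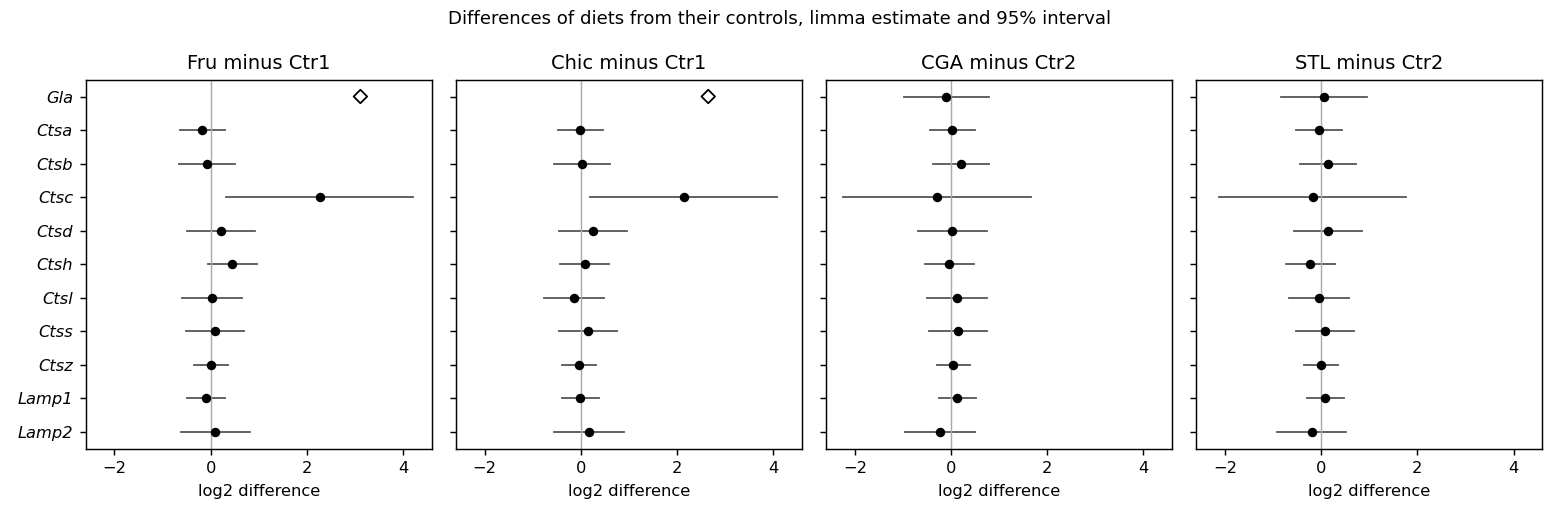
Log2 difference of each diet minus its control (horizontal axis) for Gla and the 10 cathepsin and Lamp genes, with dots for limma estimates and lines for 95% intervals. Open diamonds show Gla minus Ctr1, without interval since Gla was chosen for its low Ctr1 level, at 3.11 and 2.65, while the Ctsc intervals are the widest and all other dots lie between -0.29 and 0.45.

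Ctsc, which encodes the dipeptidyl peptidase that activates granule proteases of white blood cells, was the only one of the 10 with a difference beyond 1 unit in a comparison, and this rested on 1 array. It lay at 8.60, 8.51 and 7.96 in STL, 8.42, 7.99 and 8.34 in CGA, and 8.82 and 8.26 in Ctr2. It lay at 8.75, 8.14 and 8.69 in Fru, 8.99, 8.49 and 7.71 in Chic, and 8.64 and 3.88 in Ctr1. Only Ctr1-2 stood apart, while Ctr1-1 lay among the diets. The deposited Ctsc signal of Ctr1-2 was 300, the lowest value on that array, and 10 features shared it, while the minimum of every other array was at most 35. The 3.88 is therefore a value at the floor of the array and has no order against other dim genes.

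Fru exceeded Ctr1 in Ctsc by 2.27 ± 0.91 (SE, limma adjusted p = 0.626), Chic exceeded it by 2.14 ± 0.91 (SE, limma adjusted p = 1.00) and Ctr2 exceeded it by 2.27 ± 0.99 (SE, limma adjusted p = 0.803). Without Ctr1-2 these became -0.12, -0.25 and -0.11. Without Ctr1-1, so that Ctr1-2 alone stood for the control, they became 4.65, 4.52 and 4.66 and passed the test (limma adjusted p of 4.92e-05, 5.74e-05 and 8.25e-05). With all arrays raised to a common floor the differences were 0.49, 0.29 and 0.23. That floor was 300, the lowest value of Ctr1-2. It also replaced the Ctsc signals of Fru-2 (44) and Chic-3 (166), so the Fru and Chic means hold a floor value as well.

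The acid and cysteine proteases Ctsd and Ctsl varied between mice of the same diet, and in opposite directions. Ctsd, the main aspartic protease of lysosomes, lay at 10.55, 10.85 and 11.60 in STL, 10.82, 10.96 and 10.91 in CGA, and 10.58 and 11.16 in Ctr2. It lay at 10.92, 11.39 and 11.06 in Fru, 10.88, 10.93 and 11.67 in Chic, and 10.61 and 11.23 in Ctr1. The high arrays were STL-3, Chic-3, Fru-2, Ctr1-2 and Ctr2-2, from 5 groups. In that order, the 14 epithelial markers averaged 12.07, 12.11, 11.81, 12.20 and 12.30 on them. Every other array had an epithelial mean between 12.37 and 12.56. This match was seen after the values were known, and its part in the Ctsd level was not tested.

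Ctsl, a cysteine endopeptidase, lay at 10.46, 10.17 and 9.52 in STL, 10.29, 10.25 and 10.15 in CGA, and 10.15 and 10.06 in Ctr2. It lay at 10.36, 9.94 and 9.94 in Fru, 10.27, 9.89 and 9.57 in Chic, and 10.39 and 9.71 in Ctr1. Its lowest arrays, STL-3 and Chic-3, were the highest for Ctsd. Across the 16 arrays r between Ctsd and Ctsl was -0.87 (permutation p = 1e-05, the smallest the resampling can give) and rho -0.83 (permutation p = 0.00016), the strongest of the 45 pairs of cathepsins and Lamp genes (adjusted permutation p = 0.00045). It was -0.74 without the 2 arrays farthest from the median of Ctsd, -0.89 within the 8 arrays of STL, CGA and Ctr2, -0.84 within the 8 of Fru, Chic and Ctr1, and -0.89 with the mean of each group removed. Among 3761 genes Ctsl held place 28 by negative r with Ctsd. This pair was picked after the values had been seen.

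Both genes were correlated with the signal of a spiked-in control RNA, and Ctsd also with the median of the array. Of 22 relations of the members with the array median and with the signal of that control (6460.5 to 36164.5 across arrays), also computed after the values had been seen, Ctsd gave r = -0.66 with the log2 array median (permutation p = 0.00502, adjusted p = 0.0368) and rho = -0.71 (permutation p = 0.00286). Without the 2 arrays farthest from the median brightness r was -0.85, and it was -0.74 and -0.65 within the periods of Ctr2 and of Ctr1. An r as far from 0 was found for 14.8% of all genes. For Ctsl, r with the array median was 0.48 (permutation p = 0.0538, adjusted p = 0.169; rho = 0.59, adjusted permutation p = 0.0874), which did not pass. With the spiked-in control r was 0.75 for Ctsd (permutation p = 0.00049, adjusted p = 0.00539; rho = 0.73, permutation p = 0.00183) and -0.78 for Ctsl (permutation p = 0.00038, adjusted p = 0.00539; rho = -0.78, permutation p = 0.00058). Without the 2 arrays farthest from the median spike-in signal these were 0.69 and -0.78. The share of all genes with such an r to the spiked-in control was not computed. Within the period of Ctr2 they were 0.69 and -0.67, and within that of Ctr1 0.79 and -0.84. The part of brightness or of the epithelial markers in the opposite course of these genes was not tested.

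**Figure D4:**
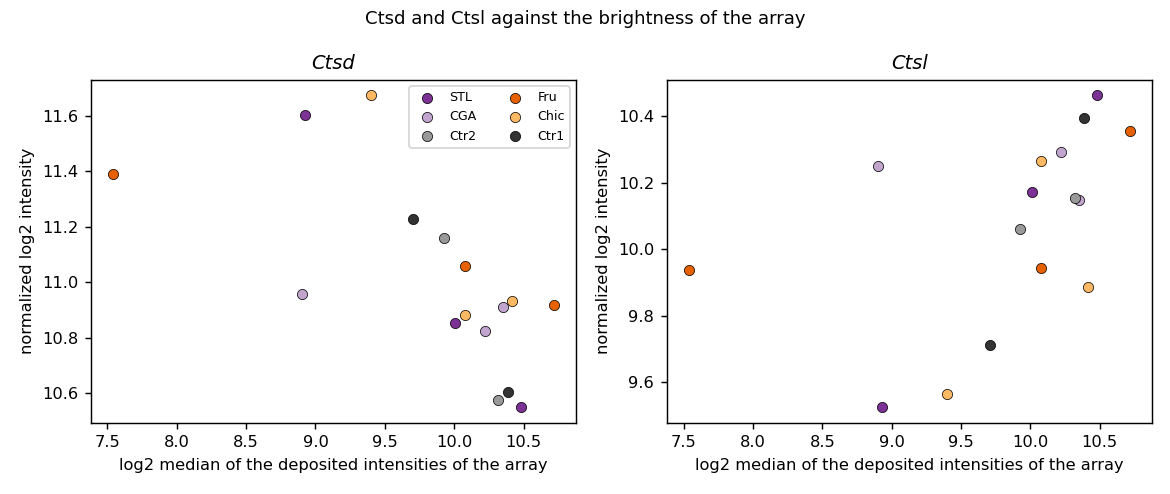
Normalized log2 intensity of Ctsd (left) and Ctsl (right) on the vertical axes against the log2 median of the deposited intensities of each array (horizontal axis), 1 point per mouse, coloured by diet group. Ctsd is lower on brighter arrays (r = -0.66), while the relation of Ctsl (r = 0.48) did not pass the test, with the dimmest array, Fru-2, at the left of both.

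Ctss and Lamp1 were also correlated with the array median, less so without Fru-2. For Ctss, the cysteine protease of antigen-presenting cells, r was 0.67 (permutation p = 0.0089, adjusted p = 0.0466; rho = 0.44, permutation p = 0.0897), and for Lamp1, a major protein of the lysosomal membrane, 0.67 (permutation p = 0.0106, adjusted p = 0.0466; rho = 0.51, permutation p = 0.0461). Their adjusted p for rho was 0.219 and 0.145. An r with the array median as far from 0 as that of Ctsd, -0.66, was found for 14.8% of all genes. Without Fru-2 alone r was 0.30 and 0.26, and without the 2 arrays farthest from the median brightness 0.43 and 0.15. Within the period of Ctr2 they were 0.29 and 0.39, and within that of Ctr1, which holds Fru-2, 0.83 and 0.81. Ctsa, the carboxypeptidase that protects beta-galactosidase and neuraminidase, gave r of 0.60 over all arrays (permutation p = 0.032, adjusted p = 0.118), which did not pass, and -0.0080 without Fru-2, with -0.58 within the period of Ctr2 and 0.86 within that of Ctr1. Ctsc passed by rank only, with rho = 0.68 (permutation p = 0.00481, adjusted p = 0.0265) beside r = 0.23 (permutation p = 0.301, adjusted p = 0.463), and r was 0.86 within the period of Ctr2 and 0.17 within that of Ctr1, which holds its floor value. The other members gave no relation with either measure that passed. Fru-2 gave the lowest value of Ctsa (11.36), Ctsb (10.46), Ctss (11.00) and Lamp1 (12.59), and the highest of Ctsh (10.94). For Gla, over the 14 arrays without Ctr1, r with the array median was -0.0043 (permutation p = 0.987) and with the spiked-in control 0.07 (permutation p = 0.814).

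**Figure D5:**
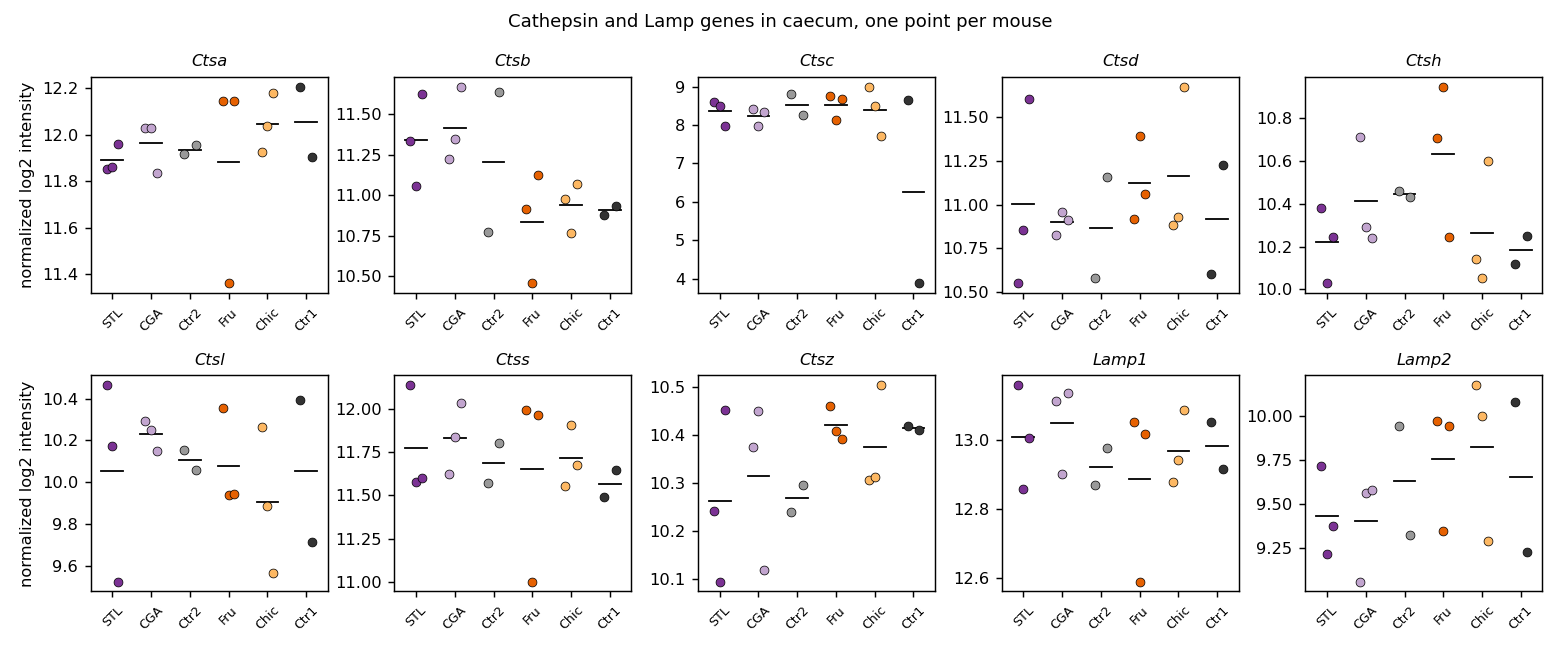
Normalized log2 intensity (vertical axes, a scale for each gene) of the 8 cathepsin and 2 Lamp genes in each diet group (horizontal axes), with 1 point per mouse and a bar at the group mean. The groups overlap for most genes, Ctsc has 1 low Ctr1 mouse at 3.88, and the low Fru point of Ctsa, Ctsb, Ctss and Lamp1 is the same mouse.

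The other proteases are described by their means and ranges. Ctsb, a cysteine protease that cuts both within proteins and at their ends, averaged 11.34 ± 0.28 in STL and 11.41 ± 0.23 in CGA (SD, n = 3 each), against 11.20 ± 0.61 in Ctr2 (SD, n = 2). It averaged 10.83 ± 0.34 in Fru and 10.94 ± 0.16 in Chic (SD, n = 3 each), against 10.91 ± 0.04 in Ctr1 (SD, n = 2). Ctr2 and Ctr1 thus differed in Ctsb by 0.30 ± 0.30 (SE, limma adjusted p = 1.00). Ctss ranged from 11.00 to 12.13 over the 16 arrays and Ctsa from 11.36 to 12.21, with no diet apart from its control. The macrophage markers, beside which Ctss is read since macrophages express it, averaged from 8.40 to 9.36 in the 14 other arrays, against 8.50 to 9.15 in Ctr1. On Fru-2, the lowest array for Ctss, they averaged 9.29, near the top of this range. The epithelial markers averaged 11.81 there, their lowest mean. The part of these cell types in the Ctss level was not tested.

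Ctsh, an aminopeptidase of lysosomes, had the largest fitted difference of the Fru group after Ctsc. It lay at 10.71, 10.94 and 10.25 in Fru, against 10.12 and 10.25 in Ctr1, and the ranges met at their edge. The difference of 0.45 had an interval from -0.06 to 0.95 (limma adjusted p = 0.775). In STL Ctsh lay at 10.38, 10.03 and 10.25, all below the Ctr2 values of 10.46 and 10.43, an order shared by 6.03% of all genes, with a difference of -0.23 (limma adjusted p = 0.999). Both Ctr2 arrays also lay above both Ctr1 arrays for Ctsh, as for 19.9% of all genes, and below them for Ctsz, as for 13.6%. Ctsz, a carboxypeptidase, was the steadiest member, with all 16 arrays between 10.09 and 10.50.

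No difference of the Lamp genes passed the test (limma). Lamp1 averaged 13.01 ± 0.15 in STL and 13.05 ± 0.13 in CGA (SD, n = 3 each), against 12.92 ± 0.08 in Ctr2 (SD, n = 2), and 12.89 ± 0.26 in Fru and 12.97 ± 0.11 in Chic (SD, n = 3 each), against 12.98 ± 0.09 in Ctr1 (SD, n = 2). The intervals bound the change of Lamp1 to between -0.48 and 0.51 in these comparisons with a control. Lamp2, which is needed for chaperone-mediated autophagy, spread more, from 9.06 in CGA-1 to 10.17 in Chic-1. It averaged 9.76 ± 0.35 in Fru and 9.82 ± 0.47 in Chic (SD, n = 3 each), against 9.65 ± 0.60 in Ctr1 (SD, n = 2). In CGA and STL Lamp2 averaged 9.40 ± 0.29 and 9.44 ± 0.25 (SD, n = 3 each), against 9.63 ± 0.43 in Ctr2 (SD, n = 2), differences of -0.23 and -0.20 that did not pass either.

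Of 182 further lysosomal genes listed by function, 68 were in the caecum table, and none passed the test in any comparison (limma). At an unadjusted p under 0.05 there were 2, both higher, for Fru against Ctr1 (7.12% of all genes) and 1 higher for Chic against Ctr1 (2.75%). There were 0 for CGA against Ctr2 (3.47%) and 1 lower for STL against Ctr2 (2.86%). The remaining comparisons gave 1 higher for Fru against Chic (1.24%), 2 lower for STL against CGA (1.08%) and 1 higher for Ctr2 against Ctr1 (6.03%). The median difference of the 68 was 0.07 for Fru and 0.08 for Chic against Ctr1, and 0.02 for CGA and 0.04 for STL against Ctr2. Among the 6 glycosidases was Hexa, a subunit of beta-hexosaminidase, which acts on other glycolipids than Gla does. Hexa averaged 9.61 ± 0.16 in Fru (SD, n = 3) against 9.23 ± 0.25 in Ctr1 (SD, n = 2), a difference of 0.38 (limma adjusted p = 0.831). Over all groups Hexa lay between 9.30 and 10.11 in the 14 other arrays, which overlapped with the 9.05 and 9.40 of Ctr1. Psap, whose product yields the saposins that present lipids to these enzymes, lay between 10.02 and 11.00 in the 14 other arrays, a range that held the 10.68 and 10.83 of Ctr1. Lgmn, an asparaginyl protease that processes cathepsins, and the membrane protein Cd63 also overlapped. Tfe3, a regulator of lysosomal genes, lay between 8.14 and 9.17 in the 14 other arrays, against 8.70 and 8.34 in Ctr1.

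Igf2r, the mannose 6-phosphate receptor that sorts hydrolases, repeated the course of Ctsc. It lay between 8.35 and 9.22 in the 14 other arrays, against 8.86 and 5.57 in Ctr1. The raw signal of Ctr1-2 was 303, next to the floor of that array. The unadjusted p of Igf2r was 0.039 for Fru and 0.028 for Chic against Ctr1 (limma adjusted p = 0.665 and 1.00). Atp6v0e, a subunit of the proton pump that acidifies the lysosome, lay from 11.62 to 12.49 in the 14 other arrays, against 11.37 and 11.56 in Ctr1, and Fru exceeded Ctr1 by 0.71 ± 0.21 (SE, limma adjusted p = 0.524).

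Cst3, the secreted inhibitor of cysteine cathepsins, was the listed gene with the smallest p in a comparison free of Ctr1. It lay at 10.99, 11.07 and 11.10 in STL, 11.60, 11.47 and 11.71 in CGA, and 11.78 and 11.70 in Ctr2. STL was thus below both other groups of its period without overlap, an order shared by 6.03% of all genes for Ctr2 and 2.75% for CGA, by -0.69 ± 0.14 against Ctr2 (SE, limma unadjusted p = 0.000327, adjusted p = 0.817) and by -0.54 ± 0.13 against CGA (SE, limma adjusted p = 1.00). Neither passed after adjustment. In the other arrays Cst3 lay at 11.81, 11.84 and 11.81 in Fru, 11.49, 11.67 and 11.68 in Chic, and 11.50 and 11.54 in Ctr1.

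The tables of the other tissues held fewer members, and Gla was in the caecum table only. The liver table held Lamp1 and Ctsz, and the ileum table Lamp1, Lamp2, Lamp5, Ctsd and Ctsz. None passed the test in any comparison (limma, adjusted over all genes of the tissue). Of the liver genes, 0.0242% passed for Fru and for Chic against Ctr1, and 0.0727% for Ctr2 against Ctr1. Of the ileum genes, 0.0189% passed in each of these 3. The smallest unadjusted p in either tissue was that of Ctsz for CGA against Ctr2, with a difference of -0.96 in liver (limma unadjusted p = 0.0054, adjusted p = 0.616) and -0.60 in ileum (limma unadjusted p = 0.00566, adjusted p = 0.249). Spots of 1 probe agreed less in these tables, with a median SD of 1.08 in liver and 1.06 in ileum against 0.17 in caecum, so which gene a row names is less sure there.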

How the data were processed

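The authors deposited whole-number intensity values, 1 column per array, from one-colour Agilent arrays of individual mice. The study's methods state a quantile normalization, but the 16 caecum arrays had 16 distinct medians, so the deposited values were taken to log2 and quantile-normalized here (limma 3.58.1, R 4.3.3). The caecum table has fewer rows than the whole-genome array of the methods has probes. A gene absent from a table may thus have been on the array. Shares of all genes refer to the genes in the table. Of 6214 rows, 227 control rows and 878 rows without a gene symbol were left out, and 23 values at or below 0 were set to missing. The brightest probe stood for a gene, which gave 3779 genes, and 89 symbols were updated through the accession. All 6 groups entered 1 limma fit with 7 contrasts, with Benjamini-Hochberg adjustment over the 3779 genes and a threshold of 0.05. Relations across arrays were tested with 100000 permutations (scipy 1.17.1). The number of arrays limits the precision. The fit was first tested on simulated data. The members and lists were chosen with earlier results of these data known. Named genes are all members, the 5 genes most like Gla over 16 and over 14 arrays, any called gene of the lists, and a fixed short set of lysosomal genes. Hspa9, Sdf4 by its gap, Atp6v0e, Smpd1, Cst3, Tfe3, Fa2h, St3gal5, Rpl36a and Timm8a1 were named after their values had been seen.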

Additional observations from a re-analysis of the deposited data

How the results depend on the processing

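The counts and the Gla differences were recomputed without between-array normalization (the deposited values), with each array moved to the same 75th percentile, with a common floor, without the dimmest 25% of genes, with the mean of all probes, with only the groups compared, with the 4 controls pooled, with a mean-variance trend, with a replicate block and with each array left out. On the deposited values the median of all genes itself moved by -0.60 for Fru against Ctr1. Of the 10 cathepsins and Lamp genes, the number called stayed at 0 throughout, except that it was between 0 and 1 with an array left out for Fru, Chic and Ctr2 against Ctr1, the 1 being Ctsc without Ctr1-1. The number correlated with Gla was 10 on the deposited values and 0 under the other alternatives. The Gla difference of STL from Ctr2 was 0.06, but -0.25 on the deposited values and -0.0217 with the replicate block, and between -0.37 and 0.48 with an array left out. That of CGA from Ctr2 was -0.09, but 1.30 with the controls pooled (1.45 for STL), which brings in the low Ctr1 arrays, and between -0.52 and 0.33 with an array left out. The Gla difference of Fru from Chic stayed between 0.10 and 0.58, and that of STL from CGA between 0.07 and 0.28. Over all genes, 1 was called for Fru against Ctr1, but 0 on the deposited values, with only the groups compared, with the controls pooled, with the replicate block and without Fru-3. For Chic against Ctr1, 0 were called, but 1 with the common floor, without the dimmest genes or without Ctr1-2. For Ctr2 against Ctr1, 0 were called, but 1 with the common floor or without Ctr1-2. Without Ctr1-1, 43 genes were called for Fru, 40 for Chic and 38 for Ctr2, each against Ctr1, and without Ctr2-1, 22 for CGA and 20 for STL against Ctr2 and 18 for Ctr2 against Ctr1, where a single control array is assumed to vary like the other groups. The cause of these moves was not tested. Of 953 recomputed differences of the cathepsins and Lamp genes, 884 stayed within 1 SD of the value given. Mice of different groups share only a number: the deviations of same-numbered mice correlated between -0.41 and 0.57, above 0.1 in 10 of 16 pairs, and the replicate block changed no call of a cathepsin or Lamp gene.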

Other observations

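Genes that make glycosphingolipids, the class of lipids that Gla helps to break down, were read beside it. Of 22 listed, 8 were in the caecum table, and none passed the test in any comparison (limma, adjusted over all genes). At an unadjusted p under 0.05, 2 were higher for Fru against Ctr1 (7.12% of all genes passed that limit in either direction), 2 for Chic against Ctr1 (2.75%), 2 for Ctr2 against Ctr1 (6.03%) and 1 for CGA against Ctr2 (3.47%). These were Fa2h and St3gal5, and for CGA St3gal5. Against Ctr1 the median difference of the 8 was 0.18 for Fru, 0.22 for Chic and 0.20 for Ctr2. The 8 ran from -0.08 to 0.91 for Fru, from -0.0079 to 0.98 for Chic and from -0.06 to 1.20 for Ctr2. Fa2h, the enzyme that adds a hydroxyl group to the fatty acids of sphingolipids, lay between 9.90 and 11.56 in the 14 other arrays, against 9.45 and 9.79 in Ctr1. It was higher than in Ctr1 by 0.91 ± 0.28 in Fru (SE, limma adjusted p = 0.539), by 0.98 ± 0.28 in Chic (SE, limma adjusted p = 1.00) and by 1.20 ± 0.31 in Ctr2 (SE, limma adjusted p = 0.701). St3gal5, which makes the ganglioside GM3, lay between 10.07 and 11.28 in the 14 other arrays, against 9.87 on both Ctr1 arrays. CGA exceeded Ctr2 in St3gal5 by 0.54 ± 0.23 (SE, limma adjusted p = 1.00). Both genes were thus among the 91 with both Ctr1 arrays below all others, and the comparisons with Ctr1 share its 2 arrays.

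Of 20 genes listed as neighbours of Gla on its chromosome, 2 were in the caecum table. Rpl36a, a ribosomal protein gene, lay between 11.45 and 12.87 in the 14 other arrays, against 11.77 and 11.62 in Ctr1. Timm8a1, which acts in mitochondrial import, lay between 8.25 and 9.35, against 8.95 and 8.30 in Ctr1. Both overlapped.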
